A study of Mus musculus with 18 samples.

Results

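The clock arm of *Arntl* is a set of 8 genes of the circadian clock, namely *Arntl*, *Clock*, *Npas2*, *Cry1*, *Cry2*, *Nfil3*, *Rora* and *Bhlhe40*. The members were taken by gene symbol from the array annotation, without a threshold on their values but with earlier results of these data known, and each is represented by its brightest probe. All 8 passed the filter on dim probes, out of 21542 gene names tested. Expression was measured in ileum epithelial cells of 18 mice on one-colour Agilent arrays, with 1 array per mouse and 6 mice per group. Control mice of the genotype Pgc1α fl/fl received either chow or WD, and the last group was iPgc1α-/- on WD. The genotype effect on chow was not analysed here.

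All mice were on the C57BL6/J background and carried floxed alleles of *Ppargc1a*, the gene of the coactivator Pgc1α. In iPgc1α-/- mice a Cre recombinase driven by the villin promoter removes part of the gene in the intestinal epithelium, so that other cell types keep it. Pgc1α fl/fl mice without Cre served as controls. WD, a Western diet that the sample labels call HFD, is a milk fat diet with 0.2% cholesterol in which fat supplies 42% of the calories. Feeding began at 8 weeks of age and lasted 8 weeks. The mice were killed at Zeitgeber Time (ZT) 3, which is counted in hours from lights on, after an overnight fast. As a single time of day was sampled, a shift of the rhythm in time and a change of its level cannot be told apart in any result that follows.

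The core clock is a loop of transcription factors. The protein of *Arntl*, also called BMAL1, pairs with CLOCK or its paralogue NPAS2, binds E-boxes and switches on the *Per* and *Cry* genes together with outputs such as *Dbp*. PER and CRY proteins then repress the pair, and BHLHE40 competes with it at E-boxes. A second loop sets the level of *Arntl* itself: receptors of the ROR family, RORα among them, activate through ROR elements, and the REV-ERB proteins (*Nr1d1*, *Nr1d2*) repress at the same elements. Pgc1α is known as a coactivator of ROR receptors. NFIL3 represses at D-boxes, the elements that DBP, TEF and HLF activate. In mouse tissues *Arntl* and the E-box driven genes peak at opposite times of the day, and the clock of the gut is set mainly by feeding. RORα and NFIL3 also act outside the clock, in the development of innate lymphoid cells.

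*Arntl* was read by 3 probes of 60 bases on mm9 chromosome 7, plus strand, all designed on the transcript NM_007489. They are shown because the largest fall among the members rests on them. They are given in the order of their position in the transcript, and the first spans 1684 bases of the genome, from 120435023 to 120436706, which is longer than the probe.
Arntl probe 1: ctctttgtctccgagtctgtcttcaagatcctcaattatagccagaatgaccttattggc
Arntl probe 2: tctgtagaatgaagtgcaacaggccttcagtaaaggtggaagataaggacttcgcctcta
Arntl probe 3: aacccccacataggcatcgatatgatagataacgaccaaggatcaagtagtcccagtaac
The second lies at chr7:120439030-120439089 and the third, the brightest, at chr7:120456978-120457037.

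The promoter windows of RefSeq (GRCm38.p6, from 250 bases before to 50 bases after a start) were searched on both strands for the E-box CACGTG, the ROR element cores TAGGTCA and TGGGTCA, and the D-box TTANGTAA. None of these motifs contains another. Among 32851 windows, 7.15% hold the E-box, 6.45% a ROR core and 2.32% the D-box. A window was found for 7 of the 8 members, 10 windows in all. A ROR core lies in 1 of the 2 windows of *Arntl* and in that of *Nfil3*, an E-box in that of *Cry1*, and none of these motifs in those of *Clock*, *Npas2*, *Cry2* and *Rora*. The windows with a match are shown, with the motif in capitals and each read on the strand of its gene. They are chr7:113207261-113207560 (plus strand) for *Arntl*, chr13:52980990-52981289 (minus strand) for *Nfil3* and chr10:85185005-85185304 (minus strand) for *Cry1*.
Arntl promoter: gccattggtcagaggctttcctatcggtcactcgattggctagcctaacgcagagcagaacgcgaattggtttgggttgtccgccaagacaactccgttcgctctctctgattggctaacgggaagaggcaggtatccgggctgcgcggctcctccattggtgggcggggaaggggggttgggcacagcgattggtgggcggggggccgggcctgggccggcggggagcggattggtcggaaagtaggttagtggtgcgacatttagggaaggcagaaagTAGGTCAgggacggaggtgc
Nfil3 promoter: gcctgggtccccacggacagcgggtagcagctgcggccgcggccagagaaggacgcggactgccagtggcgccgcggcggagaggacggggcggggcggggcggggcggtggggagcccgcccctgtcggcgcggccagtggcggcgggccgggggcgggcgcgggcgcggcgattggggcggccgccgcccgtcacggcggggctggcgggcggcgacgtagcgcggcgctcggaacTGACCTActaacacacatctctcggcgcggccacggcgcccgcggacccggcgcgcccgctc
Cry1 promoter: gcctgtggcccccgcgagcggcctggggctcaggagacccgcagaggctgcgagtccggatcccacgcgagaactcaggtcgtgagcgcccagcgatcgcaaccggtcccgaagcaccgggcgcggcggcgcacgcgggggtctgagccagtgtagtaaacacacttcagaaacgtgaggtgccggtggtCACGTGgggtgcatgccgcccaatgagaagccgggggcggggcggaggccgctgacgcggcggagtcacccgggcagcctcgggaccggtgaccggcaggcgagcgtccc
The core of *Arntl* begins 30 bases after the start, that of *Nfil3* lies on the opposite strand 12 bases before the start, and the E-box of *Cry1* begins 60 bases before it. A near copy, TAGGTTA, which 1.44% of all windows hold, begins 6 bases before the start of *Arntl*. It was searched for after the window had been seen. The expression data carry no measure of binding, and a match describes letters only.

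In Pgc1α fl/fl mice, *Arntl*, *Nfil3* and *Rora* fell and *Cry2* rose on WD, by 2.06- to 2.48-fold (6 mice against 6). Of the 8 members, 4 were called at an adjusted p of 0.05 or lower (limma, Benjamini-Hochberg over all 32726 probes) with a fold change above 1.5. The share over all genes tested was 3.22% called higher on WD and 5.2% called lower, against 1 and 3 of the 8 members. In 2 members, *Arntl* and *Cry2*, the groups did not overlap, which was so for 10.4% of the genes with a value on every array of the groups. The median log2 fold change of the members was -0.40, against 0.00 over all genes. The 8 genes did not move as one group, and the values below are given by role. All levels are log2 normalized signals of one probe, and levels of different probes are not compared.

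**Figure D1:**
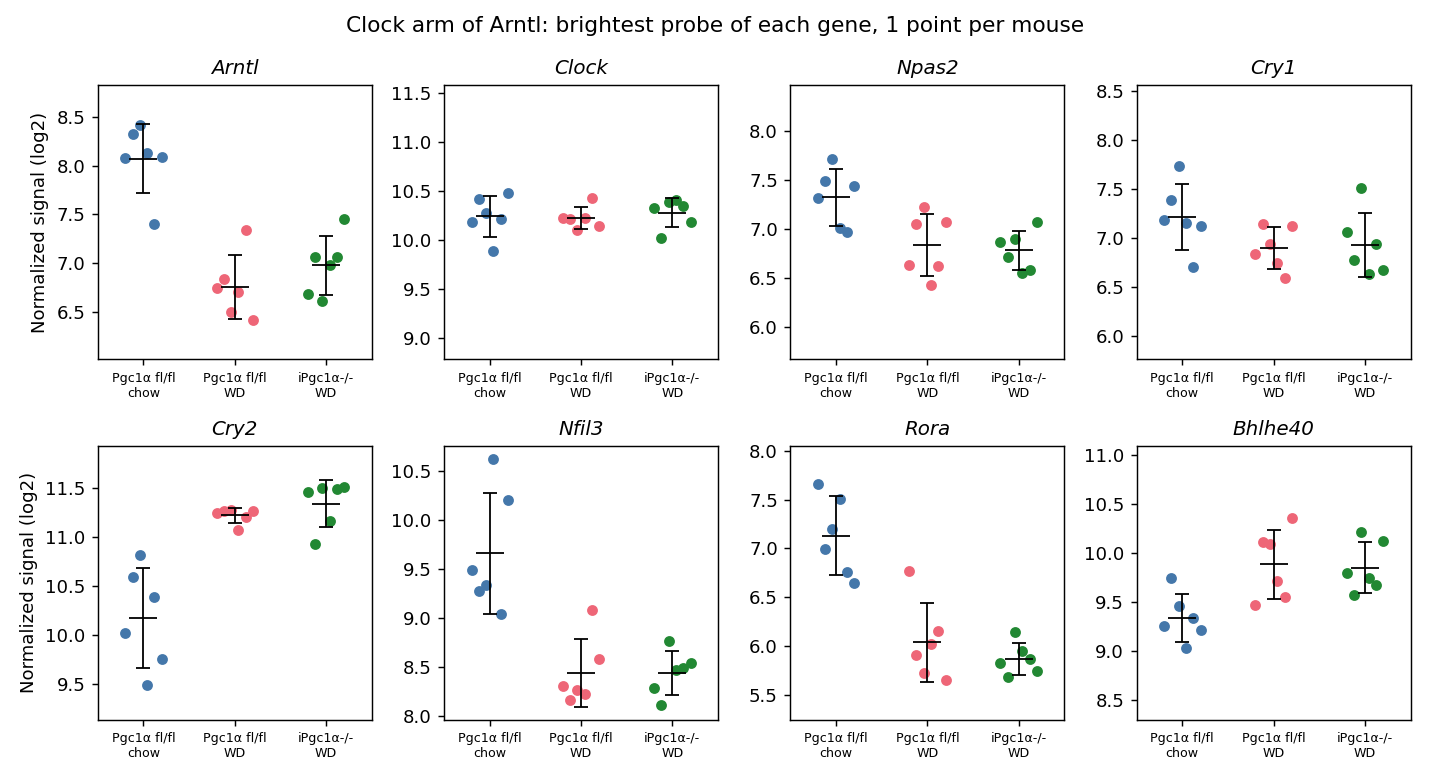
Normalized signal (log2) of the brightest probe of each member, with 1 point per mouse and bars for the mean ± SD of 6 mice, in panels of equal height. The 6 WD mice of the control genotype lie below all chow mice for *Arntl* (at most 7.34 against at least 7.40) and above all of them for *Cry2* (at least 11.08 against at most 10.82).

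Among the activators, *Arntl* had a log2 signal of 7.40 to 8.41 (median 8.11) on chow and of 6.42 to 7.34 (median 6.73) on WD. The lowest chow array (replicate 5, at 7.40) and the highest WD array (replicate 5, at 7.34) lay side by side, and the groups did not overlap. The means were 8.07 ± 0.35 (SD, n = 6) and 6.76 ± 0.32 (SD, n = 6), a 2.48-fold fall (log2 fold change -1.31, SE 0.17, limma adjusted p = 1.49e-05). Probe 1 of *Arntl* gave a log2 fold change of -1.10 (adjusted p = 5.89e-06) and probe 2 one of -0.96 (adjusted p = 3.21e-06). All 3 probes thus fell, and in none of them did the groups overlap.

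*Clock*, the partner of *Arntl*, did not differ detectably. Its signal was between 9.89 and 10.48 (median 10.25) on chow and had a median of 10.22 on WD, with all 6 WD mice inside the range of the chow mice (highest 10.43). The log2 fold change was -0.02, with a 95% confidence interval of -0.22 to 0.18 (limma adjusted p = 0.909), so a change of 1.5-fold lies outside the interval. The further 2 tested probes of *Clock* gave 0.10 and 0.13, neither called, and a further probe was too dim to be tested. *Npas2*, the paralogue that can stand in for CLOCK, ranged from 6.97 to 7.71 (median 7.37) on chow and from 6.43 to 7.22 (median 6.84) on WD. These ranges overlapped, and the log2 fold change of -0.48 (SE 0.15) passed the adjusted p (0.0209, limma) but was less than 1.5-fold and therefore not called. The limma adjusted p did not pass in every fit. It was 0.0521 with 75th percentile scaling of the median signal, and 0.0504 without the chow array of replicate 3 or without the WD array of replicate 4. Within an array, the log ratio of *Npas2* to *Clock* was lower on WD by 0.46 on average (difference -0.46; exact two-sided permutation test, p = 0.0433, adjusted over 4 tests of paralogue ratios 0.0866), which does not pass after adjustment. Leaving out the WD array of replicate 3 made that difference -0.57, with an adjusted p of 0.0260 by the exact permutation test.

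The cryptochromes, repressors of the *Arntl* and CLOCK pair, differed from each other. *Cry2* had a log2 signal of 9.49 to 10.82 (median 10.21) on chow and of 11.08 to 11.28 (median 11.26) on WD. The WD mice formed a narrow band above a broad range of chow mice, with an SD of 0.08 against 0.51 (n = 6 each). The rise was 2.06-fold (log2 fold change 1.05, SE 0.17, limma adjusted p = 1.77e-04). Probes to other *Cry2* transcripts rose by 1.04 and 1.13 on the log2 scale, both called, with no overlap of the groups in either. *Cry1* had a signal of 6.71 to 7.74 (median 7.17) on chow and of 6.59 to 7.14 (median 6.89) on WD, with overlapping groups. Its log2 fold change of -0.32 was not called (95% confidence interval -0.65 to 0.01, limma adjusted p = 0.153). The other probe of *Cry1*, well above background on 5 of 6 chow and 2 of 6 WD arrays, gave -0.08. The difference between the paralogues was itself tested: the log ratio of *Cry1* to *Cry2* within an array was -2.96 ± 0.47 (SD, n = 6) on chow and -4.33 ± 0.18 (SD, n = 6) on WD. The change of -1.37 had the smallest p that an exact permutation test of 6 against 6 can give (p = 0.00216, adjusted over the 4 tests 0.00866).

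*Bhlhe40*, the E-box repressor also called DEC1, ranged from 9.03 to 9.74 (median 9.29) on chow and from 9.47 to 10.36 (median 9.90) on WD. The ranges overlapped, although the WD median lay above every chow mouse. The log2 fold change of 0.54 (SE 0.15) passed the adjusted p (0.0141, limma) at 1.46-fold, just under the fold limit, and was not called. Without the chow array of replicate 2 it became 0.62, without the WD arrays of replicates 1 and 5 it became 0.63 and 0.61, and each of these 3 fits called it.

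Of the genes of the second loop, *Rora* had a log2 signal of 6.65 to 7.66 (median 7.09) on chow and of 5.66 to 6.77 (median 5.96) on WD. A single WD array, that of replicate 1 at 6.77, reached into the range of the chow mice. The fall was 2.13-fold (log2 fold change -1.09, SE 0.18, limma adjusted p = 1.60e-04). Within the slides the difference of *Rora* was -1.4 and -1.41 on slides 1 and 3 but -0.46 on slide 2, with 2 arrays of each group on a slide. The WD array of replicate 1 lies on slide 2, and without it the log2 fold change of *Rora* over all slides was -1.24. Another probe of *Rora* was dim, well above background on all 6 chow arrays and on 4 of 6 WD arrays, and gave -0.43 (adjusted p = 0.00316, limma), which was not called. That probe passed the filter only through the chow group, where it is brighter, so its difference is no independent support. A further one, designed on another transcript, was not well above background on any array. *Nfil3*, the D-box repressor, ranged from 9.04 to 10.63 (median 9.42) on chow and from 8.17 to 9.08 (median 8.29) on WD. Here too a single WD array, that of replicate 5 at 9.08, lay above the lowest chow array. The fall was 2.34-fold (log2 fold change -1.23, SE 0.22, limma adjusted p = 3.96e-04), and the other probe, which covers nearly the same bases of chromosome 13 and is no independent reading, gave -1.20.

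**Figure D2:**
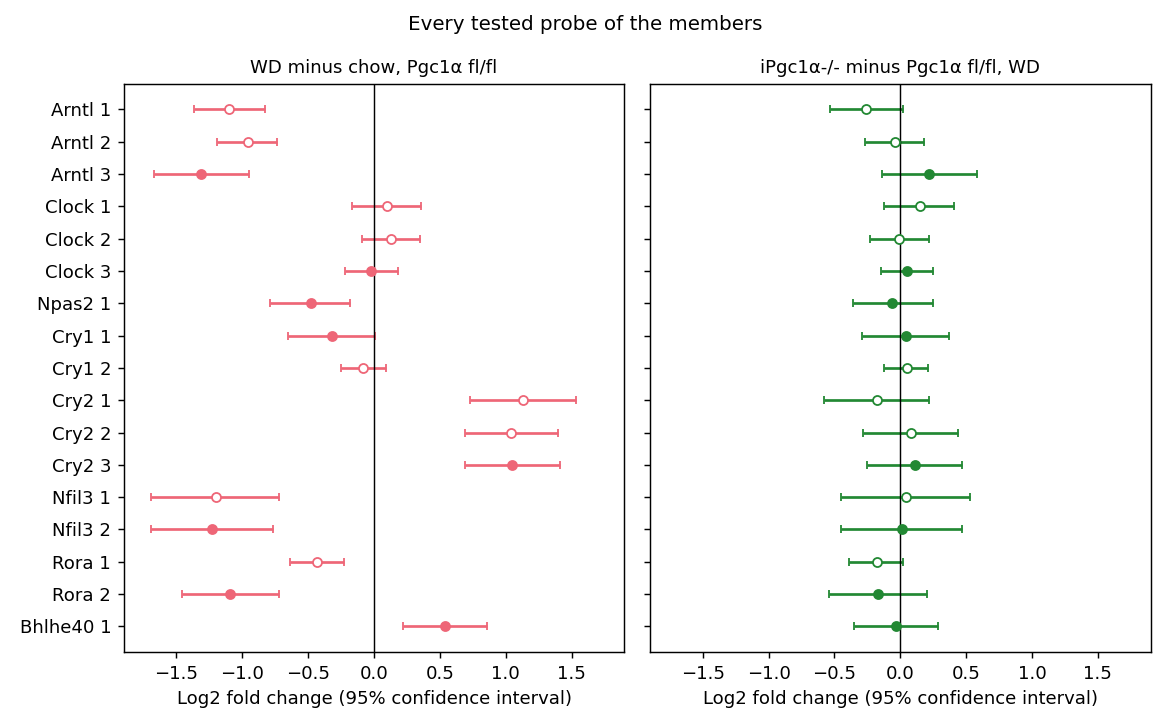
Log2 fold change with its 95% confidence interval of the 17 tested probes of the members, for diet (left) and genotype (right); filled points mark the brightest probe of a gene, and probes are numbered by their start in the transcript. All probes of *Arntl* and *Nfil3* lie below 0 and those of *Cry2* above 0 for diet, and for genotype no probe had an unadjusted p below 0.05.

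Marker genes of other cell types moved with the diet as well. All 6 T cell and intraepithelial lymphocyte markers listed (*Cd3e*, *Cd3g*, *Cd8a*, *Gzma*, *Gzmb* and *Itgae*) were called lower on WD, and their mean log2 signal per array ranged from 9.50 to 11.09 on chow and from 8.51 to 9.26 on WD. Of the innate lymphoid markers, *Il7r* and *Gata3* were called lower, with a mean of 6.85 to 7.84 on chow and 5.59 to 6.64 on WD, and *Il22* and *Il17a* were too dim to be tested. Plasma cell markers *Mzb1* and *Jchain* were called lower and *Sdc1* was not, and the mean was 8.38 to 9.31 against 6.60 to 7.89. The 6 enterocyte markers had a mean of 15.22 to 15.64 on chow and of 15.46 to 15.85 on WD, and only *Alpi* of them was called higher. These defining genes of the labelled tissue were thus present on every array. Ileal enterocyte markers *Slc10a2* and *Nr1h4*, goblet cell markers *Muc2*, *Clca1* and *Agr2*, and the cycling cell markers *Top2a* and *Ccnb1* were called lower, as were *Mmp7*, *Chga*, *Trpm5* and *Itgax*, single markers of Paneth, enteroendocrine, tuft and dendritic cells. No tested marker of stem cells, fibroblasts, smooth muscle, endothelium, glia or red blood cells was called. The Pgc1α fl/fl WD array of replicate 1, whose *Rora* reached into the chow range, stood out in some of these lists. Its smooth muscle mean was 9.03, against at most 8.1 on any other array. Its fibroblast signal, of 1 tested marker, was 6.63 against at most 6.21. Whether this bears on its *Rora* value was not tested. In bulk samples, fewer cells of a type and less RNA per cell cannot be told apart. The part of these cell types in the falls of *Arntl*, *Rora* and *Nfil3* was not tested.

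**Figure D3:**
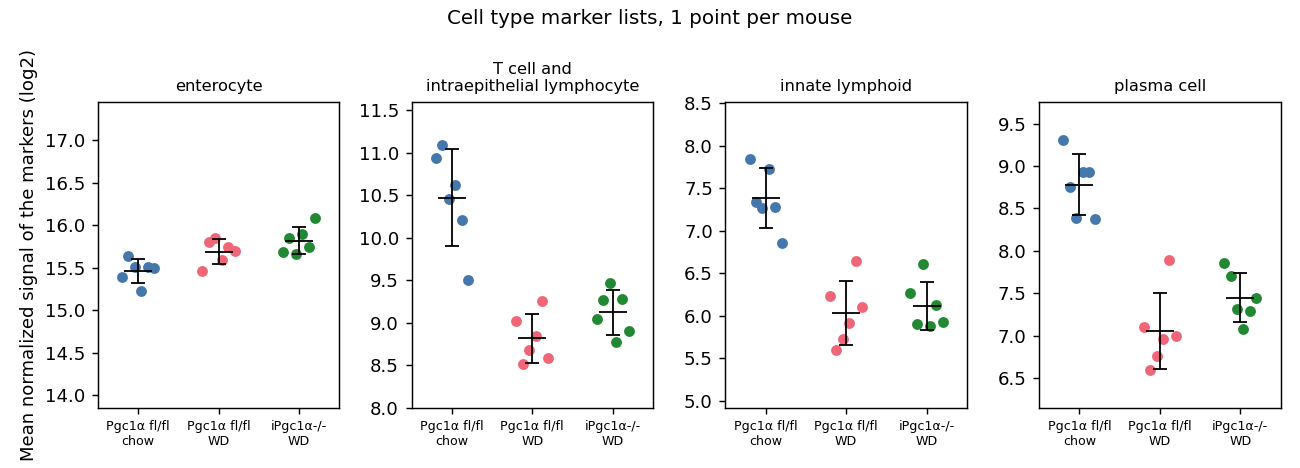
Mean normalized signal (log2) of the markers of 4 cell types, with 1 point per mouse and bars for the mean ± SD of 6 mice. The T cell, innate lymphoid and plasma cell lists separate chow from both WD groups, with at most 9.47 on WD and at least 9.50 on chow for T cells. The enterocyte list overlaps between the diets in Pgc1α fl/fl mice, while its values in iPgc1α-/- mice on WD (15.66 to 16.08) lie above all chow mice (at most 15.64).

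Single mice are given for *Arntl* beside the T cell list. Among chow mice, replicate 6 had the lowest T cell mean, 9.50, and an *Arntl* signal of 8.09, while replicate 5, the lowest for *Arntl* at 7.40, had a T cell mean of 10.21. Among WD mice of the control genotype, replicate 5 was the highest for both, with 9.26 for the T cell list and 7.34 for *Arntl*. Among iPgc1α-/- mice, replicate 3 had the highest T cell mean, 9.47, and the lowest *Arntl* signal, 6.62. *Rora* and *Nfil3* are set beside the innate lymphoid list in the same way. On chow, replicate 1 was highest for the list (7.84) and *Rora* (7.66). Replicate 6 was lowest for both (6.85 and 6.65) but had a *Nfil3* signal of 10.21. In control mice on WD, replicate 5 was highest for the list (6.64) and *Nfil3* (9.08), and replicate 1 for *Rora* (6.77). In iPgc1α-/- mice, replicate 3 was highest for the list (6.61), *Rora* (6.15) and *Nfil3* (8.77). These are values of single mice and carry no test.

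On WD, no member differed detectably between the arrays labelled iPgc1α-/- and those of Pgc1α fl/fl mice. Of the 8 members 0 were called by limma, and 0 of the 17 tested probes had an unadjusted p below 0.05. Over all genes 0.135% were called in either direction, and 2003 of 21542 had an unadjusted p below 0.05 (limma). Counts of 0 among so few genes lie near these shares. At the brightest probes the groups overlapped in every member, against 0.959% of genes without overlap. The median log2 fold change of the members was 0.02, against 0.01 over all genes, with 5 means higher and 3 lower. The 95% confidence intervals of the members lay between -0.54 and 0.58, so differences up to about 1.5-fold in either direction remain possible for single members.

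*Arntl* had a log2 signal of 6.62 to 7.45 (median 7.02) in iPgc1α-/- mice on WD, overlapping the values of Pgc1α fl/fl on the same diet. The log2 fold change was 0.22 (95% confidence interval -0.14 to 0.58, limma adjusted p = 0.696), while probes 1 and 2 gave -0.26 and -0.04. The sign thus differed between probes of the same transcript. On slide 2 alone *Arntl* differed by 0.59, against -0.02 and 0.09 on the other slides. *Rora*, at 5.69 to 6.15 (median 5.85), gave -0.17 (95% confidence interval -0.54 to 0.20), and its dim probe gave -0.18 (limma adjusted p = 0.572). That dim probe was well above background on only 1 of the 6 iPgc1α-/- arrays, and its groups, which did not overlap, lay near the background. The log2 fold changes were 0.05 for *Clock*, -0.06 for *Npas2*, 0.04 for *Cry1*, 0.11 for *Cry2*, 0.01 for *Nfil3* and -0.03 for *Bhlhe40*. The paralogue log ratios did not differ detectably either, with differences of -0.11 for *Npas2* to *Clock* and -0.08 for *Cry1* to *Cry2* (exact permutation tests, p = 0.582 and 0.602).

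The arrays offer no check of the deletion. Both probes of *Ppargc1a* lie in the last part of the transcript, at chr5:51848928-51848987 and chr5:51849419-51849478 on mm9, outside the exons that the study names as removed. The brighter one had a log2 signal of 11.26 to 11.45 in Pgc1α fl/fl and of 11.36 to 12.01 in iPgc1α-/- mice on WD (log2 fold change 0.30, limma adjusted p = 0.572). On these arrays, genotype differences therefore refer to the labels. The study itself reports the deletion from RT-qPCR of the gene in the intestinal tracts.

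In iPgc1α-/- mice on WD against Pgc1α fl/fl mice on chow, where diet and genotype differ together, the same 4 members were called in the same directions. The share over all genes was 4.94% called higher and 6.86% called lower. This comparison shares its chow arrays with the diet comparison and its iPgc1α-/- arrays with the genotype comparison, so its values stand beside theirs and add no separate evidence. *Arntl* had a log2 fold change of -1.09 (limma adjusted p = 7.66e-05), *Nfil3* of -1.22 (adjusted p = 2.86e-04), *Rora* of -1.26 (adjusted p = 2.75e-05) and *Cry2* of 1.16 (adjusted p = 4.65e-05). *Npas2* gave -0.54 (adjusted p = 0.00726) and *Bhlhe40* 0.51 (adjusted p = 0.0134), both under the fold limit, and *Clock* and *Cry1* gave 0.03 and -0.29. *Npas2* was called, at -0.61, -0.60 and -0.60, without the chow arrays of replicates 5 and 4 and the iPgc1α-/- array of replicate 6 respectively, and *Bhlhe40*, at 0.59, without the chow array of replicate 2. The groups were free of overlap in 3 members, *Cry2*, *Nfil3* and *Rora*, against 16.2% of genes.

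**Figure D4:**
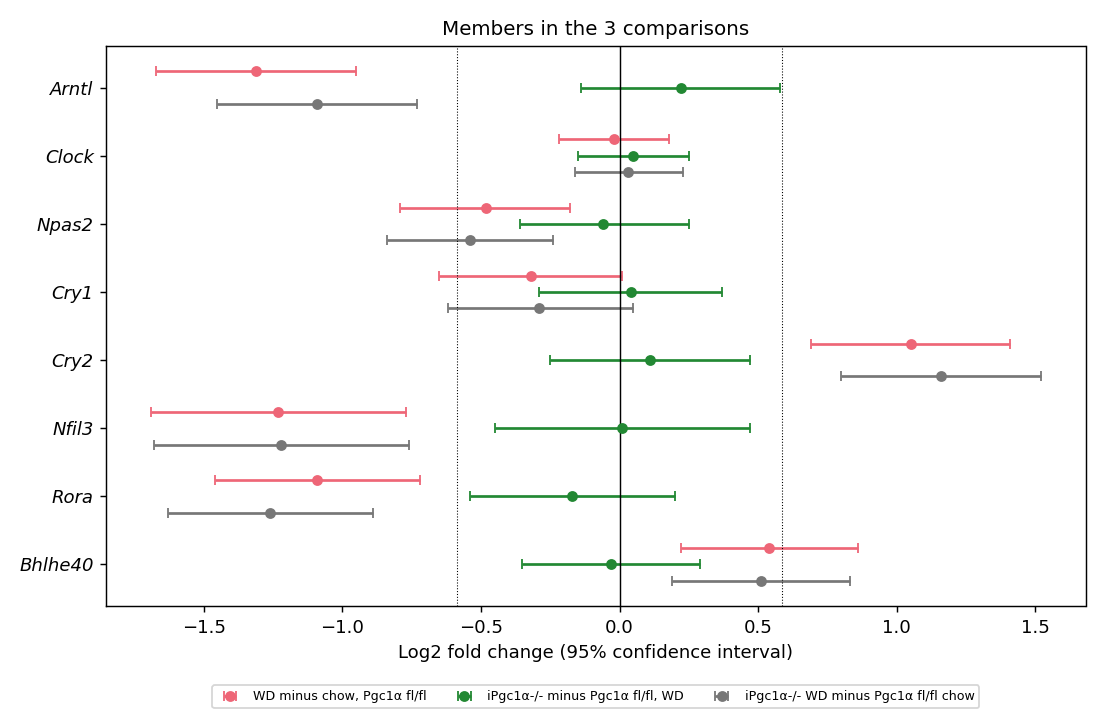
Log2 fold change with its 95% confidence interval of the 8 members in the 3 comparisons; dotted lines mark a fold change of 1.5 in either direction. The diet values (red) of *Arntl*, *Nfil3*, *Rora* and *Cry2* lie outside the dotted lines, and every genotype interval (green) spans 0.

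The order of the group means had chow at the top for *Arntl*, *Cry1*, *Nfil3*, *Npas2* and *Rora*. Below it came iPgc1α-/- and then Pgc1α fl/fl on WD for the first 3 of these genes, and the reverse for the other ones. *Cry2* and *Bhlhe40* were lowest on chow. In all 8 members the WD groups, whichever came first, did not differ beyond their spread. Between mice of a group, the relation of *Arntl* to each other member was computed over the 6 arrays of every group, 21 relations in all. None of the 21 passed after adjustment, and 3 had an exact permutation p below 0.05 before it. *Cry1* on chow gave Pearson r = 0.92 (exact permutation p = 0.00556, adjusted p = 0.117) and Spearman rho = 0.83 (exact permutation p = 0.0583), with r = 0.95 without the 2 mice farthest from the median. *Clock* in Pgc1α fl/fl mice on WD gave r = 0.97 (exact permutation p = 0.0167, adjusted p = 0.175) and rho = 0.71 (exact permutation p = 0.136), with r = 0.88 without those mice. *Npas2* on chow gave r = 0.78 (exact permutation p = 0.0278, adjusted p = 0.194) and rho = 0.83 (exact permutation p = 0.0583), with r = 0.41 without those mice. On WD *Cry1* gave r = -0.69 in Pgc1α fl/fl mice (exact permutation p = 0.118) and rho = -0.37 (exact permutation p = 0.497). Without the 2 mice farthest from the median this r turned to 0.27. In iPgc1α-/- mice *Cry1* gave r = -0.77 (exact permutation p = 0.0708) and rho = -0.66 (exact permutation p = 0.175), with r = -0.58 without those mice. The difference between the groups was not tested.

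Most E-box driven clock genes listed beside the members were higher on WD. Of 12 such genes, a list chosen with earlier results of these data known, 11 were tested. Of these, 9 were called higher on WD and 0 lower, against 3.22% called higher and 5.2% called lower over all genes. Their median log2 fold change was 1.27 (0.00 over all genes). *Dbp*, the D-box activator, had a signal of 8.46 to 11.69 (median 9.85) on chow and of at most 13.71 (median 13.53) on WD, where the groups did not overlap, a log2 fold change of 3.51 (limma adjusted p = 4.64e-07). It was followed by *Per3* (2.20), *Tef* (1.63), *Per2* (1.37), *Hlf* (1.32), *Nr1d2* (1.27), *Per1* (1.11), *Ciart* (1.06) and *Usp2* (0.99). Of the 2 tested probes of *Per2* only 1 was called. *Nr1d1*, which encodes the repressor REV-ERBα, gave 0.53 (limma adjusted p = 0.183) and *Wee1* 0.56 (adjusted p = 0.00134), neither called. By genotype limma called 0 of the 11, and 0 had an unadjusted p below 0.05, with log2 fold changes between -0.20 and 0.51. Such a p was found for 2003 of 21542 genes by genotype, so 0 of 11 lies near the share over all genes. In the comparison of diet and genotype together 11 of 11 were called higher, against 4.94% of all genes.

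**Figure D5:**
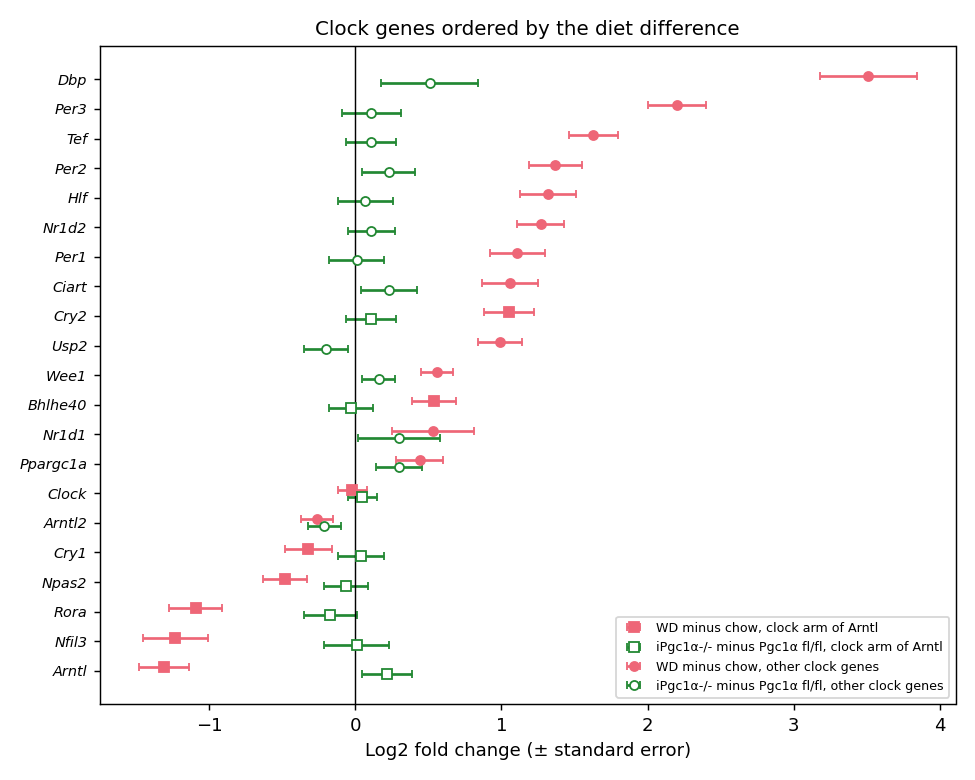
Log2 fold change ± SE for diet (filled) and genotype (open) of the 8 members (squares) and of the tested E-box driven genes, *Arntl2* and *Ppargc1a* (circles), ordered by the diet value. *Dbp* at 3.51 and *Arntl* at -1.31 form the ends of the diet order, and *Cry2* and *Bhlhe40* lie among the E-box driven genes.

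*Arntl2*, the paralogue of *Arntl*, gave -0.26 (adjusted p = 0.103, limma) and was not called, and *Rorb* was too dim to be tested. Of 18 kinases, ubiquitin ligases and partners that act on clock proteins, 0 were called higher and 1 lower, against 5.2% called lower over all genes. It was *Csnk1e*, a casein kinase that phosphorylates PER proteins (log2 fold change -0.69, limma adjusted p = 0.00165), of whose 3 probes only 1 was called. Their median was -0.02. *Ppargc1a* itself gave 0.44 for diet (limma adjusted p = 0.0556) and was called higher in iPgc1α-/- mice on WD against Pgc1α fl/fl mice on chow (0.74, adjusted p = 0.00162). By genotype limma called 0 of these genes, and 0 had an unadjusted p below 0.05, against 2003 of all 21542 genes tested.

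Over the 18 arrays, the pattern of *Arntl* was set against that of 21470 genes by the root mean square difference of the centred log2 signals, a distance whose median over all genes was 0.68. The nearest genes were *Lpxn* (0.26), *Tgfbr2*, *Anxa3*, a T cell receptor gamma constant transcript (ENSMUST00000179181) and *Anxa5* (0.29 each). They had diet log2 fold changes between -1.45 and -0.82. *Rora* ranked 318th at 0.42, *Nfil3* 415th at 0.43 and *Npas2* 1224th at 0.50, whereas *Cry1* and *Clock* ranked 5011th and 9001st. Nearest to the mirror image of *Arntl* were AK138829 (0.26), *Per1* (0.27), *Arl4d* (0.28), *Usp2* (0.28) and *Mccc1* (0.30), with *Cry2* at rank 395 and *Bhlhe40* at rank 672. Of these mirror images, *Per1* and *Usp2* belong to the E-box driven list. That list was chosen with earlier results of these data known, so their place is no separate support. The ranks rest mainly on the diet difference, which the arrays share.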

How the data were processed

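Cy3-labelled cRNA of isolated ileum cells was hybridised to Agilent SurePrint G3 Mouse GE v2 arrays. The authors deposited, per array, the spot intensity values of Feature Extraction 10.10.1.1 (median signal, mean signal and background, not normalized between arrays) and a table of log2 values for 33095 probes, which per their methods were filtered, corrected for washing bath and labelling serial and normalized with qsmooth. The batch names are not in the labels, so that correction was not repeated. No columns were left without a sample (0). Gene names and mm9 positions are those of the array files.

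Spots of one probe were averaged without control spots and the 46 to 153 outlier spots of each array. A probe was kept if 5 or more of the 6 arrays of some group had it well above background, which left 32726 probes. Their log2 median signals were brought together by an own implementation of qsmooth (window 0.05) and fitted for the 3 groups with limma 3.58.1 in R 4.3.3, with Benjamini-Hochberg adjustment. Calls were read at the brightest probe of a gene and needed an adjusted p of at most 0.05 with a change of more than 1.5-fold. Paralogue ratios and relations used exact permutation tests (SciPy 1.17.1, Python 3.11.15), and plots matplotlib 3.10.9. The procedure was tested on simulated arrays. Between 56.3% and 62.3% of spots were well above background and 0 were saturated. The number of arrays and the signal over background limit the precision, with a median SE of 0.104 for a log2 fold change. Fold changes of dim probes understate the true change. Each of the 3 slides held 2 arrays of every group.

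The members, the lists of other clock genes, the markers and the tests were chosen with earlier results of these data known. Named genes were the 8 members with all probes, called genes of the clock lists, *Ppargc1a*, and the 5 genes nearest to *Arntl* and to its mirror image. *Nr1d1*, *Wee1* and *Arntl2* for diet are named as list genes that were not called. Single results of some listed genes are not reported here. Alternatives were 75th percentile scaling of the processed or the median signal, normexp correction (offset 50), quantile normalization, the authors' log2 values, other filters on dim probes, slide or replicate number as a block, array weights, a trended and robust variance, only the groups compared, averaged probes, other thresholds and each array left out.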

Additional observations from a re-analysis of the deposited data

Results flagged for a closer look

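In 24 sets of 6 arrays, 8 members in 3 groups, 2 held an array far from the others, where chance alone marks about 1 in 20 sets. In Pgc1α fl/fl mice on chow, replicate 5 had the lowest *Arntl* signal, 7.40 against 8.08 for the next, a gap that was 0.67 of the range of the group. Without this array the fall of *Arntl* on WD was -1.44 on the log2 scale. In Pgc1α fl/fl mice on WD, replicate 4 had the lowest *Cry2* signal, 11.08 against 11.21 for the next (0.66 of a narrow range), and it still lay above every chow mouse.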

How the results depend on the processing

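*Arntl*, *Nfil3*, *Rora* and *Cry2* kept their direction and their call for diet, and for diet and genotype together, in every fit over all 3 slides, including each of the 18 arrays left out in turn. Within single slides, given as values and not tested, all 4 kept their direction for diet, but *Rora* on slide 2 was -0.46, under the fold limit, and *Nfil3* on slide 1 was -0.79. For diet, *Arntl* lay between -1.49 and -1.06 on the log2 scale over these alternatives, *Nfil3* between -1.24 and -1.11, *Rora* between -1.42 and -0.75 and *Cry2* between 1.02 and 1.13. With an array left out they lay between -1.44 and -1.24, -1.36 and -1.04, -1.24 and -0.98, and 0.91 and 1.17. Members called for diet numbered 4 to 6, and 4 to 6 for diet and genotype together, with 6 when the fold limit was dropped. The processed signal scaled to the 75th percentile also called *Bhlhe40* for diet (0.64) and, for diet and genotype together, *Npas2* (-0.69) and *Bhlhe40* (0.60). By genotype 0 members were called in any fit. The ratio of *Npas2* to *Clock* lay between -0.57 and -0.38 for diet with an array left out, and passed the adjusted threshold in 1 of those fits, at -0.57. Over all genes, 75th percentile scaling of the median signal called 884 higher of 1822 for diet, against 694 of 1815. Without the fold limit 5294 genes passed for diet, 49 for genotype and 7927 for diet and genotype together, against 1815, 29 and 2542, and at an adjusted p of 0.01 the genotype count was 14. The processed signal gave 10 higher of 30 genes by genotype, against 13 of 29, and no fold limit gave 14 higher of 49.

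The labels share replicate numbers across groups, but not every same-numbered pair deviated together: the correlations ran from -0.13 to 0.28 for diet, from -0.19 to 0.33 for genotype and from -0.22 to 0.35 for diet and genotype together, and not every array correlated best with its own number. The numbers were therefore not taken as pairs. With the replicate number as a block, 4 members were again called for diet and 0 by genotype, *Arntl* stayed at -1.31 (limma adjusted p = 1.73e-04), and the genes called went from 1815 to 1828 for diet and from 29 to 25 for genotype. Dim probes near background, such as the dimmer ones of *Rora* and *Cry1*, limit what their values show. The p-values set a difference against the spread between these mice, and limma pools that spread over the 3 groups.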
